A study of Mus musculus with 24 samples.

Results

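The 4 genes described here, Ifitm1, Ifitm2, Ifitm3 and Ifitm6, belong to the interferon-induced transmembrane (IFITM) family and are 4 of the 23991 gene symbols measured. They were taken by symbol from the table of each library, and were chosen by earlier results of these data, which showed Ifitm1 higher with a Flt3 duplication and Ifitm6 lower with an Ern1 deletion label. They were selected on measured FPKM values of the comparisons by Flt3 and Ern1 genotype. RNA came from 24 libraries of sorted C57BL/6 mouse bone marrow cells. The LSK gate (no lineage markers, Sca1 and cKit positive) takes stem and early progenitor cells together, and the GMP gate granulocyte-macrophage progenitors. There were 3 libraries for each gate and genotype. The 4 genotypes were wild type (WT); Flt3-ITD (ITD), an internal tandem duplication in the receptor tyrosine kinase gene Flt3 that is found in acute myeloid leukaemia; Ern1(fl/fl)-VavCre (labelled IRE1_KO), in which a Cre recombinase driven by Vav regulatory sequences acts on loxP-flanked Ern1 across blood cells; and the combination of both (labelled IRE1_KO_ITD). The Ern1 product, IRE1α, senses stress in the endoplasmic reticulum and through its RNase domain splices Xbp1 mRNA. Neither age, nor Flt3-ITD copy number, nor whether WT and ITD mice carried Cre or a floxed allele was given in the sources used here. The comparison addresses how the IRE1α-XBP1 pathway shapes stem and progenitor cells with and without the leukaemia allele.

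IFITM proteins are small membrane proteins that stop enveloped viruses from fusing with the cell. IFITM3 acts mainly at endosomes and IFITM1 more at the cell surface. Their genes are classical targets of type I interferon and of interferon gamma, and stem cells are known to hold some of them at a high level without added interferon. Ifitm6 is a less studied mouse member. Interferon signals pass through JAK kinases to transcription factors that bind the interferon-stimulated response element (ISRE) or the gamma-activated site (GAS).

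The 4 genes lie in 1 cluster on mouse chromosome 7, from 140954837 to 141017924 in mm10 (63.1 kb). In the GENCODE annotation of that build, Ifitm2 spans 140954837 to 140955987 on the minus strand and Ifitm1 140967221 to 140969825 on the plus strand. Ifitm3 spans 141009586 to 141010770 and Ifitm6 141015699 to 141017924, both on the minus strand. The sequences just outside the first exons are shown because the 4 neighbours differ in these data, and because 2 of them carry an ISRE core near the start. Each is from the RefSeq promoter table (GRCm38.p6, the assembly named mm10), 5′ to 3′ on the gene's own strand, holds no annotated exon, and has an ISRE core (GAAA, any 2 bases, GAAA) in capitals where one lies in it. Those of Ifitm1 and Ifitm6 lie inside the GENCODE span of their gene, in which another transcript starts further upstream.
Ifitm1, chr7:140967908-140968027, plus strand: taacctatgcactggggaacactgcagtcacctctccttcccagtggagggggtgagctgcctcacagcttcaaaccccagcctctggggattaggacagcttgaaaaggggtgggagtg
Ifitm2, chr7:140955988-140956107, minus strand: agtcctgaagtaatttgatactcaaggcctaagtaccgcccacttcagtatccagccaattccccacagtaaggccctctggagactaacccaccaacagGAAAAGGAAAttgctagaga
Ifitm3, chr7:141010771-141010890, minus strand: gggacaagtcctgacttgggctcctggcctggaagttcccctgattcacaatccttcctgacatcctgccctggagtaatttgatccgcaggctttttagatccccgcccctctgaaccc
Ifitm6, chr7:141016909-141017028, minus strand: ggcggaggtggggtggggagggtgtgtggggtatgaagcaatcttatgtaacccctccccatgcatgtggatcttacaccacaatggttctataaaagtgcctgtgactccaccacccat
The ISRE core of Ifitm2 runs from -46 to -37 relative to its RefSeq start. In Ifitm3 the elements lie just inside the transcript, where the 27 bases from 2 to 28 hold an ISRE core, a GAS (TTC, any 3 bases, GAA) that overlaps the next element, and a further ISRE core, with the letters of any of the 3 in capitals.
Ifitm3, chr7:141010716-141010742, minus strand: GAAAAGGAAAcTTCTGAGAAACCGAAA
Ifitm6 holds a GAS in the last bases before its RefSeq start, from -10 to -2, which GENCODE places in the first exon of 1 transcript.
Ifitm6, chr7:141016894-141016902, minus strand: TTCCTTGAA
No match to either motif, read on both strands, was found in the RefSeq promoter window of Ifitm1, which spans its start. Of 32851 promoter windows of the same length, 3.44% held the ISRE core and 8.30% the GAS. The XBP1 element TGACGTG (in 2.01% of windows) and the endoplasmic reticulum stress element (CCAAT, any 9 bases, CCACG, in 0.119%) matched in none of the 4 windows. These matches describe letters and are not measured binding sites.

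Values are FPKM (fragments per kilobase of transcript, scaled to the fragments mapped in the library), so levels can be set side by side between genes. An LSK library held 11119 to 11471 genes at 1 FPKM or more and a GMP library 10436 to 10831. Sequencing depth is known only in relative terms, from 0.922 to 1.29 between libraries, and replicates correlated at 0.941 to 0.966. No label states that the 3 libraries of a group are separate animals, so the spread between them may be partly technical. A tag of 1ng stands in the headers of the IRE1_KO LSK libraries alone, in which Mir6236 made up 0.175% to 0.904% of the FPKM sum, against 2.72% to 6.61% in the others. Judged by sex-linked genes, the ITD libraries were all female and each other genotype was mixed, so sex and the ITD genotype are in part joined. Ern1 was higher, not lower, with the deletion label: it averaged 4.34 ± 0.539 FPKM in WT and 6.28 ± 2.21 in ITD LSK (mean ± SD, n = 3 here and below), 7.62 ± 1.04 in IRE1_KO and 11.8 ± 1.01 in IRE1_KO_ITD LSK, and 9.06 ± 1.41, 13.9 ± 2.08, 20.6 ± 3.48 and 29.4 ± 3.38 in the matching GMP groups. A value per gene cannot show which exons were read, so it is no check of the deletion, and groups are named as labelled. The gates matched their markers: 14 stem cell genes summed to 469 to 1368 FPKM in LSK and 31.7 to 102 in GMP, and 9 primary granule genes to 1422 to 3975 and 19739 to 33537. Within LSK the genotypes differed. The stem cell sum was 737 to 1368 in WT, 469 to 578 in ITD, 733 to 985 in IRE1_KO and 515 to 821 in IRE1_KO_ITD. The LSK gate genes Kit and Ly6a summed to 237 to 286, 137 to 230, 232 to 279 and 123 to 137 in the same order. The part of such differences in the contrasts between genotypes was not tested.

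Ifitm1, Ifitm2 and Ifitm3 were among the abundant transcripts of LSK cells, and Ifitm1 was the member that varied most between genotypes. All 4 genes exceeded 1 FPKM in each of the 24 libraries. In WT LSK the 3 were nearly level, at 1054 ± 132 FPKM for Ifitm1, 1163 ± 77.8 for Ifitm2 and 1101 ± 9.63 for Ifitm3, with Ifitm6 at 34.6 ± 16.9. Ifitm1 supplied 31.4% ± 2.90 of the summed FPKM of the 4 genes in WT LSK and 66.0% ± 2.49 in ITD LSK. In GMP its share was 14.6% ± 4.49 in WT and 48.6% ± 11.0 in ITD. With the Ern1 label the shares were 25.3% ± 1.06 in IRE1_KO LSK and 71.6% ± 2.24 in IRE1_KO_ITD LSK, and 9.53% ± 2.68 and 64.7% ± 1.93 in the GMP groups. The 4 genes together took 0.628% ± 0.0359 of all FPKM in WT LSK and 1.51% ± 0.124 in ITD LSK, and 0.227% ± 0.00783 and 0.560% ± 0.114 in the matching GMP groups. Ifitm6 was the minor member, at most 7.15% ± 4.15 of the sum, in IRE1_KO GMP.

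**Figure D1:**
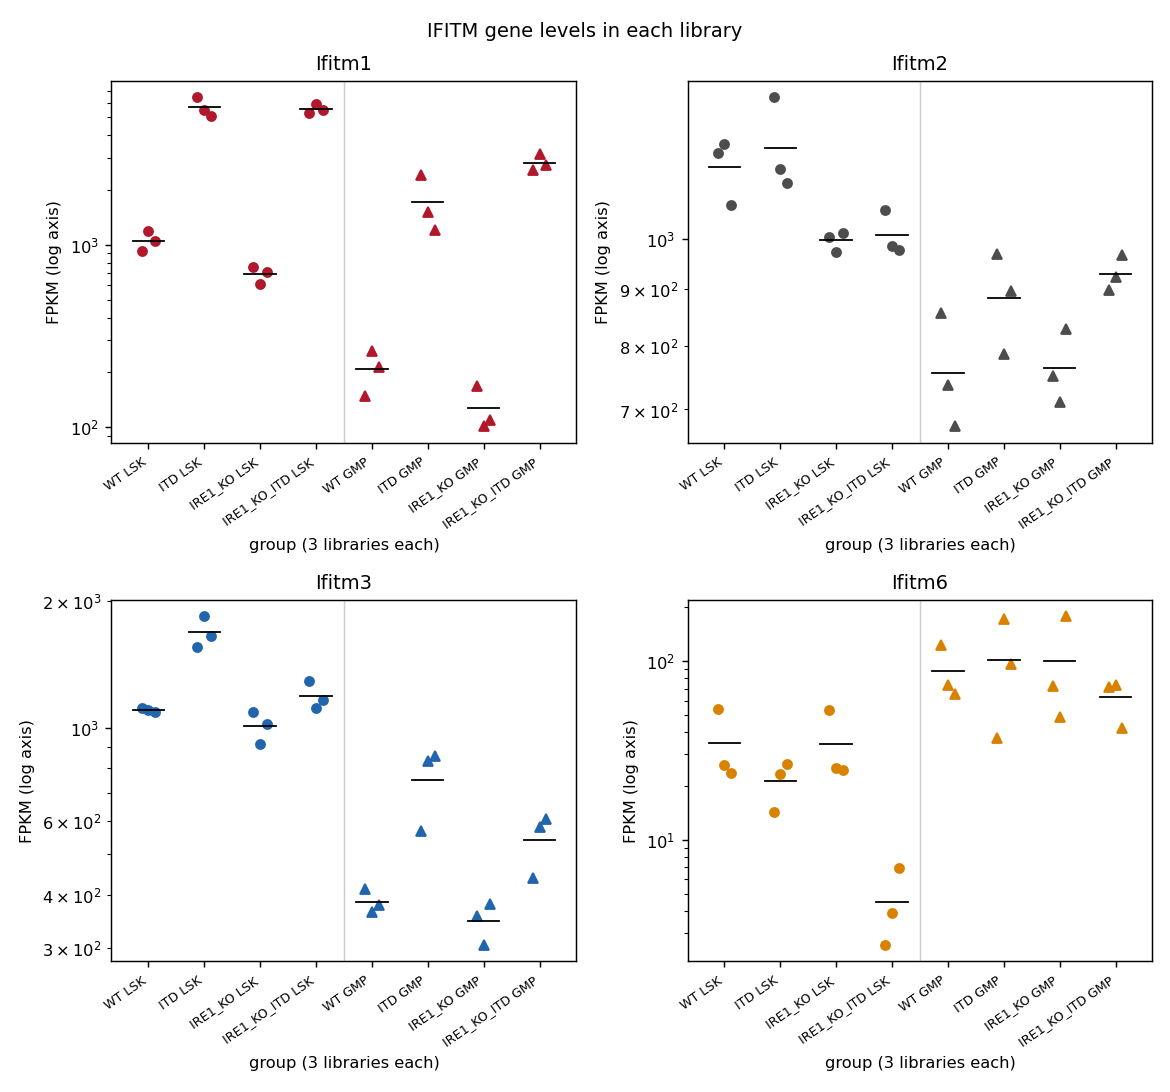
FPKM of each gene (log axis, with its own range for each gene) in the 24 libraries; circles are LSK and triangles GMP libraries, and black bars are group means of 3 libraries. Ifitm1 lies between 5074 and 6428 FPKM in ITD LSK against 924 to 1188 in WT LSK, while the Ifitm6 points of IRE1_KO_ITD LSK lie at 2.58 to 6.96, under all other libraries.

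**Figure D2:**
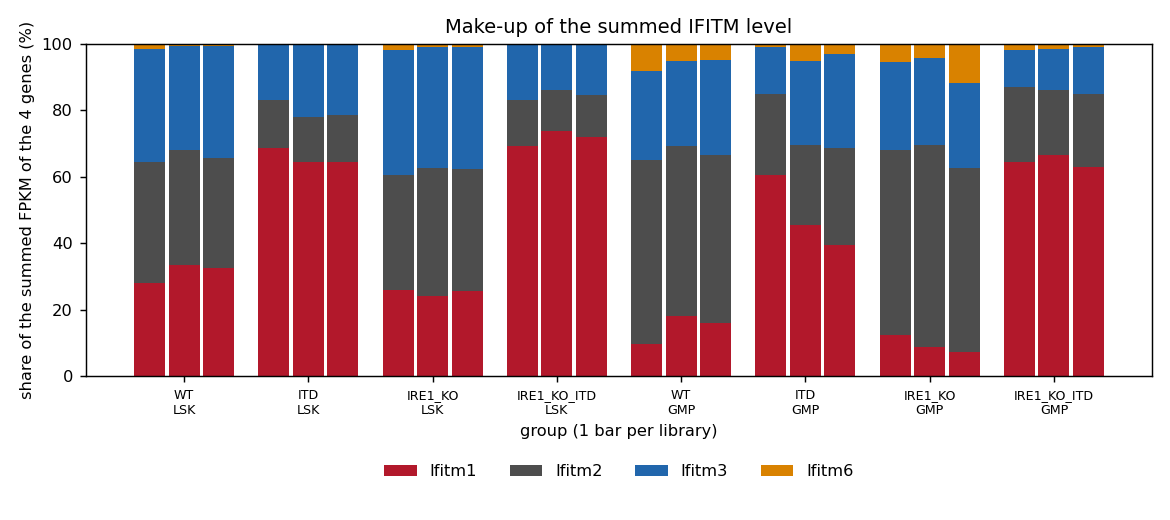
Share of each gene in the summed FPKM of the 4 genes (percent, from 0 to 100), with 1 bar per library. Ifitm1 fills 64.4% to 68.8% of the bar in ITD LSK against 28.1% to 33.6% in WT LSK.

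Ifitm1 lay far above WT in every library with the Flt3 duplication. The WT LSK libraries held 924, 1188 and 1052 FPKM (replicates 1, 2 and 3, the order used for all such lists) and the ITD LSK libraries 6428, 5512 and 5074. These were the second highest values of any gene in each of the 3 ITD LSK libraries, while the WT values ranked from 47 to 70. The difference was 2.43 ± 0.12 on the log2(FPKM + 1) scale (± SE of the limma fit for this and all log2 differences below), or 5.38-fold. In IRE1_KO LSK it stood at 756, 607 and 714 FPKM and in IRE1_KO_ITD LSK at 5294, 5884 and 5476, a difference of 3.01 ± 0.12 (8.03-fold). The ITD and IRE1_KO_ITD LSK libraries overlapped, with a difference of -0.03 ± 0.12, whereas all 3 IRE1_KO libraries lay under all 3 WT libraries, at -0.60 ± 0.12 (-0.53 with quantile normalization and -0.80 with a median-ratio size factor). These contrasts chose the gene and are given as a description with no test.

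In GMP, Ifitm1 again lay above its partner group in every library with the duplication. It stood at 148, 261 and 215 FPKM in WT and at 2432, 1507 and 1200.5 in ITD, a difference of 3.01 ± 0.29 (8.06-fold). In IRE1_KO GMP it stood at 169, 101 and 110.3 FPKM and in IRE1_KO_ITD GMP at 2571, 3163 and 2732, a difference of 4.50 ± 0.29 (22.6-fold). Within the ITD background the libraries with the Ern1 label lay above those without it in every case, by 0.78 ± 0.29, while without ITD the label went with a difference of -0.71 ± 0.29 and overlapping libraries. Ordered by mean, the 8 groups ran from ITD LSK (5671 ± 691 FPKM) and IRE1_KO_ITD LSK (5551 ± 302), which overlapped, through IRE1_KO_ITD GMP (2822 ± 306), ITD GMP (1713 ± 641), WT LSK (1054 ± 132) and IRE1_KO LSK (692 ± 76.6), none overlapping its neighbours, to WT GMP (208 ± 57.0) and IRE1_KO GMP (127 ± 36.8), which overlapped. With sex as a covariate the ITD differences from WT were 2.54 ± 0.14 in LSK and 3.25 ± 0.31 in GMP.

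Ifitm3, the best known antiviral member, differed in the same direction with the duplication but by less. The WT LSK libraries held 1110.4, 1102 and 1091 FPKM and the ITD LSK libraries 1553, 1838 and 1652, a difference of 0.61 ± 0.09 without overlap. In IRE1_KO_ITD LSK it stood at 1287, 1111 and 1161 FPKM, under every ITD library (-0.50 ± 0.09) and above every IRE1_KO library (1089.6, 916 and 1017; difference 0.24 ± 0.09). In GMP it stood at 415, 365 and 379 FPKM in WT, 567, 835 and 855 in ITD, 357, 305 and 381 in IRE1_KO and 438, 581 and 606 in IRE1_KO_ITD. Both ITD groups lay above their partners in GMP, by 0.94 ± 0.17 and 0.63 ± 0.17, and the libraries of IRE1_KO_ITD and ITD overlapped (-0.46 ± 0.17). IRE1_KO was at -0.13 ± 0.09 from WT in LSK and -0.16 ± 0.17 in GMP. Quantile normalization took the LSK difference of IRE1_KO_ITD from ITD to -0.04 and from IRE1_KO to 0.53, and that of IRE1_KO from WT to -0.02 in LSK and 0.008 in GMP. With a median-ratio size factor the LSK difference of IRE1_KO from WT was -0.33.

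Ifitm2 was the steadiest of the 4. Its LSK values were 1197, 1218 and 1074 FPKM in WT, 1343, 1157 and 1122 in ITD, 1004, 973 and 1013 in IRE1_KO and 1062, 984 and 976 in IRE1_KO_ITD. The ITD libraries overlapped those without ITD on either Ern1 label (0.05 ± 0.09 and 0.01 ± 0.09), and both labelled groups lay under their partners (-0.22 ± 0.09 for IRE1_KO and -0.26 ± 0.09 for IRE1_KO_ITD). These values moved with the scaling: with quantile normalization they were -0.09 and 0.11, and the first was -0.42 with a median-ratio size factor. In GMP it stood at 856, 736 and 676 FPKM in WT, 969, 786 and 896 in ITD, 749.9, 711 and 828 in IRE1_KO and 898, 924 and 966 in IRE1_KO_ITD. The GMP differences were 0.23 ± 0.11 for ITD from WT, 0.29 ± 0.11 for IRE1_KO_ITD from IRE1_KO (without overlap), 0.02 ± 0.11 for IRE1_KO from WT and 0.08 ± 0.11 for IRE1_KO_ITD from ITD. The level of Ifitm2 is uncertain: 48.5% of the 50-base stretches of its annotated transcripts also occur in transcripts of other genes, among them Gm45717, against 5.02% for Ifitm1, 63 of 629 stretches for Ifitm3 and 0 of 854 for Ifitm6. Stretches shared with another of the 4 genes were 1.42% for Ifitm1, 3.30% for Ifitm2 and 5.56% for Ifitm3.

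Ifitm6 was lowest in LSK with both alleles together. Its LSK values were 54.1, 26.2 and 23.6 FPKM in WT, 14.4, 23.3 and 26.4 in ITD, and 53.1, 25.1 and 24.6 in IRE1_KO. In IRE1_KO_ITD LSK it stood at 2.58, 3.90 and 6.96 FPKM, under all other libraries. The difference of IRE1_KO_ITD was -2.07 ± 0.41 from ITD and -2.67 ± 0.41 from IRE1_KO, while that of IRE1_KO from WT was -0.01 ± 0.41 and that of ITD from WT -0.62 ± 0.41, with overlapping libraries in both. In GMP the values were 123, 73.8 and 65.0 FPKM in WT, 37.3, 171 and 96.4 in ITD, 72.6, 48.5 and 178 in IRE1_KO and 71.6, 73.5 and 42.3 in IRE1_KO_ITD. All 4 GMP groups overlapped: IRE1_KO differed from WT by 0.03 ± 0.57, ITD from WT by 0.02 ± 0.57, IRE1_KO_ITD from ITD by -0.49 ± 0.57 and IRE1_KO_ITD from IRE1_KO by -0.49 ± 0.57. These contrasts chose the gene and are likewise given with no test.

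Markers of late neutrophils moved with Ifitm6 across libraries. The 12 measured markers (granule and maturation genes such as Ngp, Ltf, Camp, Lcn2, S100a8 and S100a9) summed to 9993, 4935 and 4991 FPKM in WT LSK, to 479, 2418 and 1116 in ITD LSK and to 11750, 5441 and 4713 in IRE1_KO LSK. In IRE1_KO_ITD LSK the sum was 116, 396 and 174 FPKM, with Mmp9, Cxcr2 and Stfa2 under 1 FPKM in each library. The 12 monocyte and macrophage markers summed to 268 to 437 FPKM in IRE1_KO_ITD LSK and to 647 to 1185 in the other LSK groups. In GMP the late neutrophil sum ranged from 1501 FPKM in IRE1_KO_ITD replicate 3 to 94689 in ITD replicate 2, and the ITD GMP library with the least, replicate 1 at 2432, also had the lowest Ifitm6 of that group. In bulk samples, fewer cells of a type and less RNA per cell cannot be told apart, and the part of these cells in the Ifitm6 values was not tested.

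**Figure D3:**
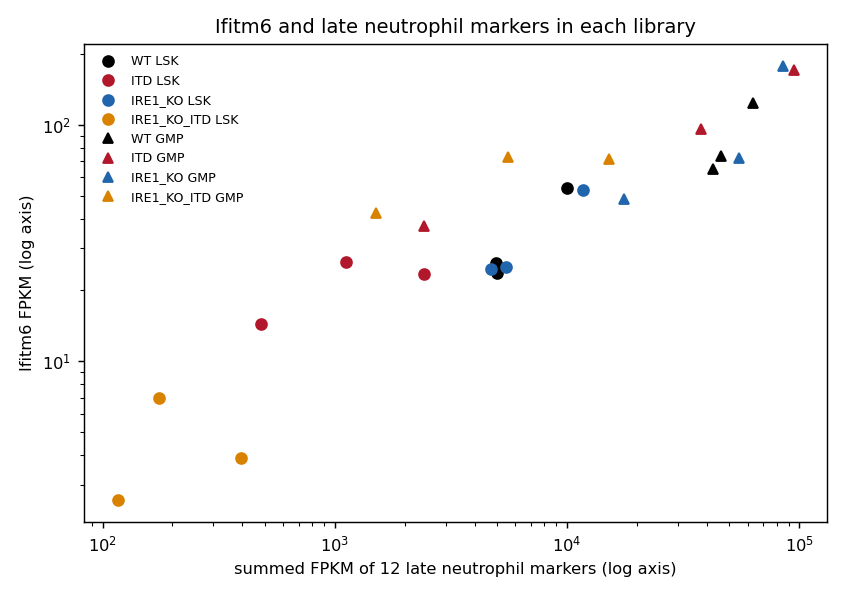
Ifitm6 FPKM against the summed FPKM of 12 late neutrophil markers (both axes log) in the 24 libraries; colours are genotypes, circles LSK and triangles GMP. The 3 IRE1_KO_ITD LSK libraries are lowest on both axes, with sums of 116 to 396 and Ifitm6 at 2.58 to 6.96.

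Set against all genes, the lack of overlap between groups was common. For ITD against WT in LSK, 2 of the 4 genes (Ifitm1 and Ifitm3) lay higher in every ITD library, as did 25.8% of 11955 genes tested (limma called 22.2% in either direction). In GMP the same 2 did, as did 21.8% of 11249 genes. For IRE1_KO_ITD against IRE1_KO, Ifitm1 and Ifitm3 lay higher without overlap in LSK (19.5% of genes) and Ifitm6 lower (26.8%), and Ifitm1, Ifitm2 and Ifitm3 lay higher in GMP (22.5%). For IRE1_KO against WT, Ifitm1, Ifitm2 and Ifitm3 lay lower in every LSK library, as did 6.25% of genes against 29.7% higher, and none did in GMP, where 7.81% of genes did. The 3 IRE1_KO LSK libraries of that contrast are those with the 1ng tag, whose part in it was not tested, and the median of all genes tested there was 0.14. For IRE1_KO_ITD against ITD in LSK, Ifitm2, Ifitm3 and Ifitm6 lay lower without overlap (16.4% of genes; limma called 20.2% in either direction). In GMP Ifitm1 alone lay higher (14.2%) and none lower (5.49%). These contrasts chose the genes, so nothing is read from the counts.

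**Figure D4:**
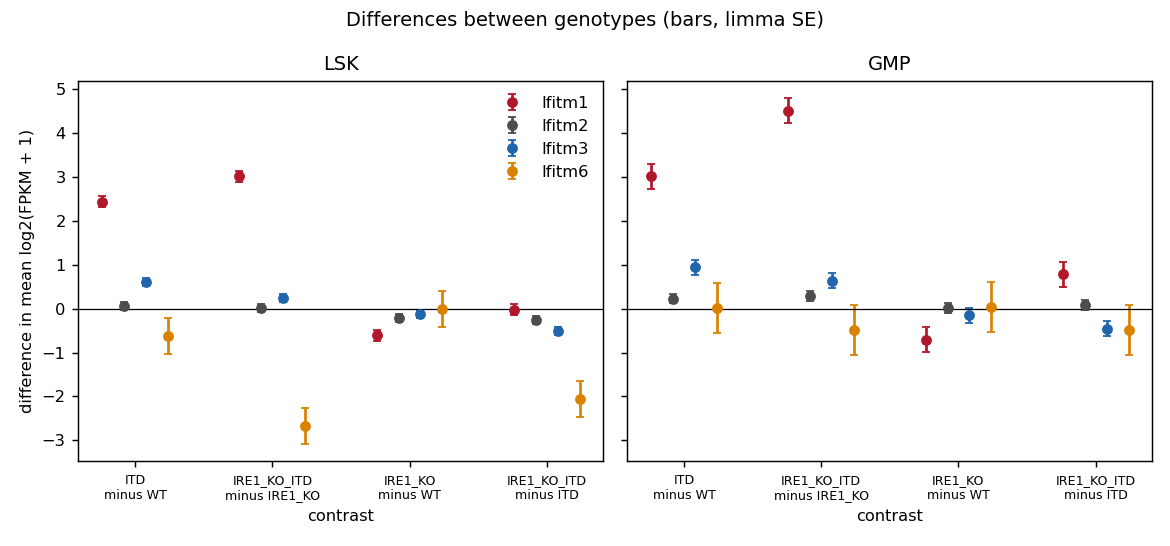
Differences between genotypes in mean log2(FPKM + 1) in LSK (left) and GMP (right), with bars of 1 SE of the limma fit (3 libraries a group). Ifitm1 stands at 2.43 to 4.50 in the contrasts with the duplication, and Ifitm6 in LSK at -2.67 and -2.07 in those that involve IRE1_KO_ITD.

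GMP were then set against LSK within each genotype. This contrast did not choose the genes. For Ifitm1 in ITD and IRE1_KO_ITD it rests on libraries whose high values chose the gene, so those values are descriptions with no test. For Ifitm6 in IRE1_KO_ITD it rests on the LSK libraries whose low values chose the gene, so that value is a description with no test. Ifitm1 and Ifitm3 fell from LSK to GMP in all 4 genotypes, Ifitm2 fell in 3 of them, and Ifitm6 rose in the 3 in which it was tested. All 4 genes passed the test in WT, where limma called 50.3% of 12348 genes, and in IRE1_KO, where it called 50.8%. In ITD Ifitm2, Ifitm3 and Ifitm6 passed, against 40.5% of genes. In IRE1_KO_ITD Ifitm3 passed and Ifitm2 did not, against 40.7% of genes. Ifitm1, Ifitm2 and Ifitm3 lay lower in GMP without overlap in all 4 genotypes, as did 37.3% of genes in WT, 30.9% in ITD, 42.7% in IRE1_KO and 33.3% in IRE1_KO_ITD. The median of all genes tested was -0.11 in WT, -0.16 in ITD, -0.22 in IRE1_KO and -0.13 in IRE1_KO_ITD.

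Ifitm1 fell by 2.37 ± 0.23 in WT (limma adjusted p = 1.05e-07), with all 3 GMP libraries under all 3 LSK libraries. It fell by 2.47 ± 0.23 in IRE1_KO (limma adjusted p = 5.96e-08), again without overlap. In ITD it was lower by 1.78 ± 0.23 and in IRE1_KO_ITD by 0.98 ± 0.23, also without overlap and given without a test. Ifitm3 fell by 1.51 ± 0.14, 1.18 ± 0.14, 1.54 ± 0.14 and 1.14 ± 0.14 in the same order, with limma adjusted p = 3.61e-06 or lower and no overlap in any genotype. Ifitm2 fell by 0.63 ± 0.10 in WT (adjusted p = 2.62e-05), 0.45 ± 0.10 in ITD (0.00121) and 0.39 ± 0.10 in IRE1_KO (0.00243). In IRE1_KO_ITD it stood at -0.12 ± 0.10 (adjusted p = 0.370), with the GMP libraries just under the LSK ones. The IRE1_KO call of Ifitm2 was lost with a median-ratio size factor (-0.13, adjusted p = 0.244), and under quantile normalization the IRE1_KO_ITD value was -0.62 and passed (0.000139).

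Ifitm6 rose from LSK to GMP by 1.35 ± 0.53 in WT (limma adjusted p = 0.0396), 1.99 ± 0.53 in ITD (0.00592) and 1.39 ± 0.53 in IRE1_KO (0.0343). The difference in IRE1_KO_ITD stood at 3.57 ± 0.53, without a test. The GMP libraries lay above the LSK libraries without overlap in all but IRE1_KO. The same held for 23.7% of genes in WT, 15.6% in ITD and 18.5% in IRE1_KO_ITD. The calls in WT and IRE1_KO were weak: each was lost in 4 of the 6 fits that left out 1 library, with adjusted p up to 0.145 and 0.200. The late neutrophil sum was higher in GMP as well, at 42613 to 63115 FPKM against 4935 to 9993 in WT LSK, and its part in the rise of Ifitm6 was not tested.

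**Figure D5:**
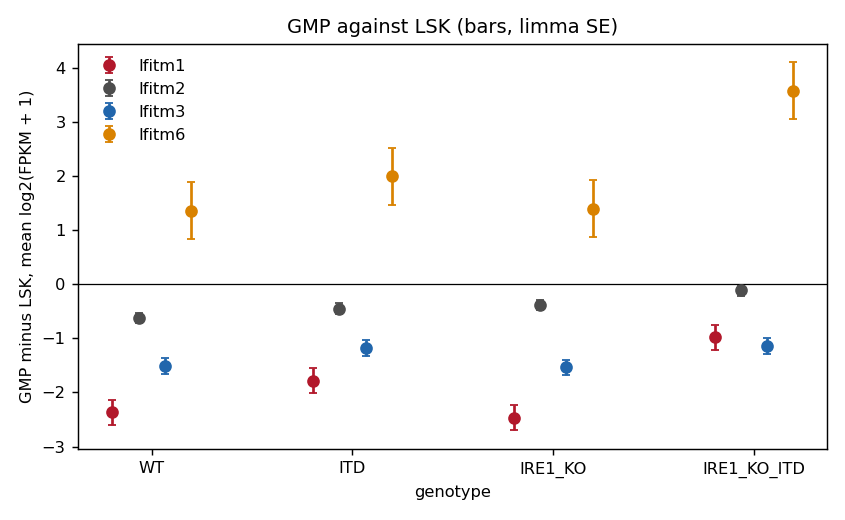
GMP minus LSK in mean log2(FPKM + 1) for each gene and genotype, with bars of 1 SE of the limma fit over 24 libraries. Ifitm1 lies between -2.47 and -0.98, Ifitm3 between -1.54 and -1.14, and Ifitm6 between 1.35 and 3.57.

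Whether the ITD difference was larger in GMP than in LSK was tested for Ifitm2 and Ifitm3. Neither passed: the difference of the ITD effects (GMP minus LSK, mean over both Ern1 labels) was 0.22 ± 0.10 for Ifitm2 (limma adjusted p = 0.0920) and 0.36 ± 0.14 for Ifitm3 (0.0644), where 27.3% of genes did (17.3% higher and 9.91% lower). Both lay close to the threshold of 0.05. Each was called when LSK and GMP libraries of the same genotype and number were treated as a block. In IRE1_KO_ITD that block joins libraries of unlike sex. For Ifitm6 the value was 1.41 ± 0.53, a description, since it includes the IRE1_KO_ITD LSK libraries that chose the gene. Without the 1ng libraries, which leaves only ITD against WT, it was 0.64. For Ifitm1 the value was 1.04 ± 0.23, a description. The Ern1 label effect did not pass as different between populations for Ifitm1 (0.35 ± 0.23, adjusted p = 0.423), Ifitm2 (0.29 ± 0.10, 0.0634) or Ifitm3 (0.01 ± 0.14, 0.985), where 11.4% of genes passed (1.64% higher and 9.73% lower), and stood at 0.81 ± 0.53 for Ifitm6, a description.

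The interaction of the 2 alleles asks whether the ITD difference depends on the Ern1 label. In LSK limma called 6.94% of genes (1.36% higher and 5.58% lower) and neither of the members tested: Ifitm2 was at -0.04 ± 0.12 (adjusted p = 0.882) and Ifitm3 at -0.37 ± 0.13 (0.114), against a median of -0.14 for all genes. Ifitm1 at 0.58 ± 0.18 and Ifitm6 at -2.06 ± 0.58 are differences of contrasts that chose them and were not tested. In GMP limma called 0 of 11249 genes, with 1468 at an unadjusted p under 0.05. Ifitm2 was there at 0.06 ± 0.16 (adjusted p = 0.882) and Ifitm3 at -0.31 ± 0.24 (0.575). Ifitm1 stood at 1.49 ± 0.40 and Ifitm6 at -0.52 ± 0.80, without a test.

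The interferon pathway around these genes was read from lists. Of 23 interferon ligand genes listed, 21 were in the files and none reached 1 FPKM in 3 libraries of a fit, Ifnb1 being highest at 0.751 FPKM in 1 library. The receptor chains were present: Ifnar2 stood at 58.9 to 95.7 FPKM, Ifnar1 at 5.37 to 10.5 and Ifngr1 at 43.3 to 259. From LSK to GMP in WT, 43 of 58 type I interferon-stimulated genes fell and 1 rose (limma called 31.3% of genes lower and 19.0% higher), with a list median of -0.91 against -0.11 for all genes. Ifitm1, Ifitm2 and Ifitm3 fell in the same comparison. Lgals3bp, a galectin-binding protein gene, fell by 1.58 ± 0.10 (limma adjusted p = 3.08e-10). Irf7, the factor that amplifies the type I response, fell by 3.26 ± 0.43 (limma adjusted p = 4.61e-06), from 44.8 ± 6.49 FPKM in WT LSK to 3.91 ± 1.63 in WT GMP. Ifngr1, a chain of the interferon gamma receptor, went the other way and rose by 1.89 ± 0.12. Of 29 interferon gamma-stimulated genes, 23 fell and 2 rose (median -0.93). Gbp2, a guanylate-binding protein gene, fell by 2.38 ± 0.21 (limma adjusted p = 3.54e-08).

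Type I genes were then read with the Flt3 duplication. For ITD against WT in LSK, 2 of 58 type I genes rose and 5 fell (14.9% of all genes rose and 7.27% fell), with a list median of -0.08 against 0.08 for all genes. In GMP 8 of 53 rose and 1 fell (7.37% and 3.32% of genes; medians 0.09 and 0.07), a count of risen genes that was 18 without ITD replicate 1, and as low as 2 when ITD replicate 3 or WT replicate 2 or 3 was left out. Of the interferon gamma-stimulated genes, 11 of 29 rose in LSK and 11 of 25 in GMP, with 1 fallen in each and list medians of 0.19 and 0.49. Igtp, an immunity-related GTPase, rose by 1.15 ± 0.14 in LSK, and the peptide transporter gene Tap1 by 0.90 ± 0.11 and the class II transactivator Ciita by 1.78 ± 0.21 in GMP (limma adjusted p = 0.00105 or lower). With single libraries left out the counts of risen genes were 6 to 10 in LSK (lowest without ITD replicate 2 or 3) and 4 to 11 in GMP (6 or fewer when ITD replicate 3 or WT replicate 2 or 3 was left out), and with sex as a covariate 5 and 3. Summed markers of T and NK cells (8 genes) stood at 1.26, 9.98 and 13.1 FPKM in ITD LSK against 4.10 to 6.43 in WT LSK, and at 0.847, 6.68 and 9.23 in ITD GMP against 1.48 to 2.56 in WT GMP. The sums were highest in ITD replicates 2 and 3. The T cell receptor genes Cd3e, Cd3g and Cd3d and the NK cell genes Klrb1c and Ncr1 were under 1 FPKM in all of these libraries. In ITD only Cd8a and Klrd1 reached 1 FPKM in at least 1 LSK library, and only Klrd1 in GMP, so the sums rest on few genes. The dendritic markers Cd209a, Itgax, Clec9a and Xcr1 reached 1 FPKM in at least 1 ITD GMP library and in no WT GMP library, with sums over 8 genes of 117 to 161 and 109 to 154. In LSK these sums were 162 to 269 in ITD and 317 to 357 in WT, although Clec9a and Xcr1 reached 1 FPKM in at least 1 ITD library and in no WT library. The 8 genes include Bst2, also a listed type I gene, and Flt3 itself. Flt3 averaged 55.7 ± 2.79 FPKM in ITD LSK and 150 ± 9.45 in WT LSK, so the sums are no measure of dendritic cells alone. The part of such cells in the rise of these genes was not tested. The interferon regulatory factor gene Irf8, a driver of the monocyte fate, rose by 1.30 ± 0.13 in GMP, while Ifngr1 fell by 0.81 ± 0.12 (limma adjusted p = 0.00298 or lower).

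In IRE1_KO_ITD LSK the type I genes were low while Ifitm1 was high. Against ITD, 35 of 58 fell and 0 rose (6.96% and 13.3% of all genes), with a median of -0.61 against 0.06; Zbp1, a nucleic acid sensor, fell by 2.38 ± 0.26, Ifi44 by 2.62 ± 0.33 and Irf7 by 2.42 ± 0.35 (limma adjusted p = 0.00205 or lower). The count was 25 to 39 with single libraries left out. Ifitm1 differed by -0.03 ± 0.12, Ifitm2 by -0.26 ± 0.09 and Ifitm3 by -0.50 ± 0.09 in the same contrast. Against IRE1_KO, 41 of 58 fell and 0 rose (19.6% and 11.7% of genes; medians -0.78 and -0.04), and Ifitm1 stood at 3.01 ± 0.12. Both contrasts share the IRE1_KO_ITD libraries. Dendritic markers were low in these libraries too, at 142 to 155 FPKM summed over 8 genes against 162 to 269 in ITD LSK. Siglech, Cd209a, Itgax, Clec9a, Xcr1 and Ly6d were under 1 FPKM in IRE1_KO_ITD LSK. The sums also hold Bst2, itself among the type I genes, and Flt3, at 70.6 ± 4.76 FPKM in IRE1_KO_ITD LSK and 55.7 ± 2.79 in ITD LSK. The part of such cells in the fall of the type I genes was not tested. For IRE1_KO_ITD against ITD in GMP, 5 of 53 fell and 0 rose (0.916% of genes each way), with medians of -0.54 and 0.07. The count fallen was 0 to 30 with single libraries left out. Irf7 fell by 2.44 ± 0.46 there (limma adjusted p = 0.0281), while Ifitm1 stood at 0.78 ± 0.29. Against IRE1_KO in GMP, 7 fell and 2 rose (4.50% and 8.47% of genes). For IRE1_KO against WT, 3 of 58 type I genes rose and 1 fell in LSK, against 21.0% and 2.72% of genes, and 0 of 53 moved in GMP, where limma called 0.533% of genes.

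Genes linked to IFITM proteins in the literature were read as a further list of 10, of which 9 were tested. From LSK to GMP in WT, 3 of the 9 rose and 3 fell, against 19.0% and 31.3% of all genes. The tetraspanin gene Cd81 fell by 0.998 ± 0.102 (limma adjusted p = 1.95e-07). Atp6v0b, a subunit of the proton pump of endosomes, rose by 0.85 ± 0.09, and Zmpste24, a membrane protease, rose by 1.02 ± 0.13, with limma adjusted p = 3.95e-06 or lower. For ITD against WT in LSK, the ubiquitin ligase gene Nedd4 rose by 0.84 ± 0.14 (limma adjusted p = 0.00258) and Cd81 fell by 0.64 ± 0.12 (0.00595). In all, 2 of the 9 rose and 2 fell in that contrast (14.9% and 7.27% of genes), and 0 rose and 2 fell in GMP (7.37% and 3.32%).

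The other family members were low. Of 10 further IFITM and related dispanin genes in the files, Ifitm5, Ifitm7, Tmem91 and Prrt2 reached 1 FPKM in at least 3 libraries, while Ifitm10 stood at 0 to 0.164 FPKM. Ifitm7 lay at 1.39 to 8.37 FPKM. For ITD against WT it fell by 0.74 ± 0.15 in LSK (limma adjusted p = 0.00791) and by 0.62 ± 0.11 in GMP (0.00736), and from LSK to GMP in WT it rose by 0.42 ± 0.13 (0.0106), the opposite direction to Ifitm1 in each. For IRE1_KO against WT in LSK it fell by 0.55 ± 0.15 (limma adjusted p = 0.0239), where Ifitm1 stood at -0.60. Tmem91, a related gene at 0.661 to 10.5 FPKM, fell by 1.10 ± 0.22 for ITD against WT in LSK (limma adjusted p = 0.00636). Ifitm5, known from bone, stayed at 0.175 to 1.96 FPKM.

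The genes beside the cluster are given as a comparison for the members. Of 15 protein-coding neighbours that start within 100 kb of the cluster, 12 were in the files and 9 were tested. For ITD against WT in LSK, B4galnt4, a glycosyltransferase gene that starts 93.9 kb from Ifitm1, rose by 1.27 log2 units (limma adjusted p = 0.000277) and Sigirr, a gene of an inhibitory interleukin-1 receptor relative 133 kb away, fell by 0.43 (0.0247), so 2 of 9 were called, against 22.2% of all genes. In GMP Pkp3, a desmosomal plakophilin gene 111 kb away, rose by 0.61 (0.0191), and the other 8 did not pass, while 10.7% of all genes passed. For IRE1_KO_ITD against IRE1_KO in LSK, B4galnt4 rose by 2.12 (limma adjusted p = 4.84e-06) and Sigirr fell by 0.38 (0.0303), against 31.3% of genes called. In GMP B4galnt4 rose by 1.34 (limma adjusted p = 0.006) and Pkp3 by 0.74 (0.00663), and 8.47% of genes rose. B4galnt4 ranged from 0.260 to 9.84 FPKM, far under Ifitm1. None of the 9 passed for IRE1_KO against WT in either population, where limma called 23.7% of genes in LSK and 0.533% in GMP. For IRE1_KO_ITD against ITD in LSK, B4galnt4 rose by 0.996 (limma adjusted p = 0.00166) and the neighbour Sirt3 by 0.31 (0.0278), against 20.2% of genes called. In GMP 0 of the 9 passed for that contrast (1.83% of genes). From LSK to GMP in WT, 1 of the 9 rose and 6 fell (19.0% and 31.3% of genes).

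The genes most like each member differed between members. Over the 24 libraries and 9694 genes with a group mean of at least 5 FPKM, the highest Pearson correlations of log2(FPKM + 1) with Ifitm1 were those of Socs2 (0.984), Cish (0.964), Clnk (0.959), Ppic (0.954) and H2afy2 (0.947). Socs2 and Cish encode feedback inhibitors of cytokine signalling, and Clnk an adaptor of immune receptors. Socs2 averaged 15.6 FPKM in WT LSK and 255 in ITD LSK, and 0.626 and 62.3 in the GMP groups. For Ifitm3 they were H2-K1 (0.955), Tap1 (0.944), H2-Q4 (0.943), Gm12250 (0.938) and H2-T9 (0.937), of which H2-K1, H2-Q4 and H2-T9 are class I histocompatibility genes. For Ifitm6 they included Siglece (0.942), Rgs10 (0.939), Camp (0.932) and Lcn2 (0.931), the last 2 being late neutrophil markers of the list above. For Ifitm2 they were Mrps6 (0.926), Eef1g (0.924), Atp5d (0.923), Nfix (0.923) and Mta1 (0.919). Among members, Ifitm1 correlated at 0.68 with Ifitm2, 0.75 with Ifitm3 and -0.63 with Ifitm6. These are descriptions without a test: the 24 libraries share 8 groups, and all such values carry the difference between LSK and GMP. Within LSK alone (12 libraries) Ifitm1 and Ifitm3 correlated at 0.74 and Ifitm1 and Ifitm6 at -0.68, and within GMP at 0.75 and -0.28.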

How the data were processed

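RNA was measured in 24 libraries of 8 groups. Per the submitters' processing notes STAR (aligner, mm10) and Cufflinks were used; their versions: not given in the sources used here. Each deposited file lists, from the authors, FPKM for every gene symbol of 1 library. The labels' protocols speak of SMART-Seq v4 and Nextera XT, while the series' design text has a TruSeq stranded kit; the conflict remains, as does whether strand was used in counting. Depth enters only as the relative depth read from ratios of values under 0.3 FPKM, where 39.3% to 48.3% of genes stood in whole-number ratios (numbers up to 6, tolerance 0.005) against 2.07% to 3.40% with a shifted factor; no counts were recovered, so no interval from counts is given.

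limma 3.58.1 (R 4.3.3; mean-variance trend; Benjamini-Hochberg over all genes tested; threshold 0.05) was run on log2(FPKM + 1). A gene was tested where 3 or more libraries of the fit had 1 FPKM or more. The fit held 24 libraries for GMP against LSK and for differences between populations, 12 of a population otherwise. The log2(FPKM + 1) scale understates changes of low genes. The members and lists were chosen with earlier results of these data known. The 8 Flt3 and Ern1 contrasts are therefore given without p, as are the interactions made from the contrast that chose Ifitm1 or Ifitm6. So are values of Ifitm6 that rest on the IRE1_KO_ITD LSK libraries, and GMP against LSK of Ifitm1 in ITD and IRE1_KO_ITD. This is stricter than the planned tests. Named genes are the 4 members, the 3 called genes with the smallest p of each list, called neighbours, and the 5 genes most correlated with each member; not all are printed, some named genes are not reported here, and levels of pathway genes, Ern1, Ifitm10 and Socs2 are given as descriptions. List genes named in a sentence beyond the members were chosen from these after their values were seen. Alternatives were quantile normalization, a pseudocount of 0.1, a median-ratio size factor, no filter, a block for the replicate number, LSK and GMP libraries of the same genotype and number as a block, sex as a covariate, only the libraries compared, each library left out, and, added after the data were seen, leaving out the 1ng libraries. Deviations of same-numbered libraries correlated at -0.338 to 0.103 between genotypes and -0.100 to 0.236 between LSK and GMP of a genotype. Numbers were not taken as pairs in the main fits. Whether LSK and GMP libraries of the same number share an animal in WT, ITD and IRE1_KO is not settled, and fits with that block are given below. The fit was tested on simulated data. Promoters and motifs used the RefSeq table of GRCm38.p6, in which all 4 members matched, and gene spans and shared 50-base stretches GENCODE M21. Tables and figures used Python 3.11.15, numpy 2.4.6, pandas 2.3.3 and matplotlib 3.10.9.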

Additional observations from a re-analysis of the deposited data

Results flagged for a closer look

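The Ern1 label went with opposite differences of Ifitm1 in GMP on the 2 Flt3 backgrounds: it stood at -0.71 ± 0.29 log2 units without the duplication and at 0.78 ± 0.29 with it. The difference between these was not tested, because it is built from contrasts that chose the gene. Ifitm2 stood at -0.26 ± 0.09 for IRE1_KO_ITD against ITD in LSK and at 0.08 ± 0.11 in GMP. That difference was not tested within ITD; averaged over both Flt3 genotypes it was 0.29 ± 0.10 (limma adjusted p = 0.0634).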

How the results depend on the processing

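Of 442 alternative fits of the 24 tests of members, 416 counted as unchanged, as did every alternative of 17 tests. These counts include GMP against LSK of Ifitm1 in ITD and IRE1_KO_ITD, which are given above as descriptions. Unchanged means the same call, and a change of sign was counted only where the main or the alternative fit passed. Values that passed in neither could turn sign and still count as unchanged. The cause of the other values was not tested. The rise of Ifitm6 from LSK to GMP in WT lost its call without a filter (1.35, limma adjusted p = 0.0665) and with quantile normalization (1.26, 0.0567), and ran from 1.08 to 1.72 with single libraries left out; in IRE1_KO it lost it without a filter (1.39, 0.0606) and ran from 0.87 to 1.80. Ifitm2 from LSK to GMP stood at -0.13 in IRE1_KO with a median-ratio size factor and at -0.62 in IRE1_KO_ITD with quantile normalization. With single libraries left out the difference of ITD effects ran from 0.18 to 0.27 for Ifitm2 (3 of 24 fits passing) and from 0.31 to 0.46 for Ifitm3 (2 of 24). The difference of Ern1 label effects for Ifitm2 was 0.33 (0.0226) with a median-ratio size factor and ran from 0.25 to 0.33 with libraries left out (2 of 24 passing). With quantile normalization Ifitm1 stood at 2.24 for ITD against WT and 2.77 for IRE1_KO_ITD against IRE1_KO in LSK. Values that turned sign included Ifitm2 for IRE1_KO_ITD against ITD in LSK (0.11) and Ifitm3 for IRE1_KO against WT in GMP (0.008). The difference of Ern1 label effects for Ifitm3 did so as well, from 0.01 to -0.19, and passed in neither fit.

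The replicate numbers are not taken as pairs. With the replicate number as a block, the WT rise of Ifitm6 was 1.35 (limma adjusted p = 0.0523), the difference of Ern1 label effects for Ifitm2 0.29 (0.0448), and the genes called 783 for ITD against WT, 35 for IRE1_KO against WT and 62 for IRE1_KO_ITD against ITD in GMP. With LSK and GMP libraries of 1 genotype and number as a block, the differences of ITD effects were 0.22 for Ifitm2 (0.0451) and 0.36 for Ifitm3 (0.0498), and that of Ern1 label effects for Ifitm2 0.29 (0.0303). Libraries correlated best with their own number in 13 of 36 cases between genotypes and 7 of 12 between populations. None of these 7 was in IRE1_KO_ITD, where the correlations were -0.06, -0.10 and 0.02. Judged by sex-linked genes, female libraries had the same numbers in LSK and GMP in the other genotypes. In IRE1_KO_ITD the female was replicate 3 in LSK and replicate 2 in GMP, so the block by number joins libraries of unlike sex there.

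Counts of genes called over all genes moved more. In LSK, ITD against WT called 2650 genes, 1384 with sex as a covariate, 1689 with only the libraries compared and 1282 to 2599 with single libraries left out, and IRE1_KO_ITD against ITD called 2418, and 1177 to 2342. The interaction in LSK called 830, 537 with a median-ratio size factor, 82 with sex and 343 to 1549 with libraries left out, and in GMP 0, 3 without a filter and 0 to 91. In GMP, ITD against WT called 1203, 271 with sex, 509 with only the libraries compared and 384 to 1609 with libraries left out. IRE1_KO_ITD against IRE1_KO called 1459, and 708 to 1176. IRE1_KO against WT called 60, 94 with a median-ratio size factor, 39 with sex and 27 to 45. IRE1_KO_ITD against ITD called 206, 130 with a pseudocount of 0.1, 15 with sex, 12 with only the libraries compared and 13 to 759. GMP against LSK in ITD called 5001, and 2582 with only the libraries compared. Without the 1ng libraries, chosen after the data were seen, the difference of ITD effects called 1691 genes against 3366 and that of Ern1 label effects 832 against 1404. A fit of only the libraries compared was not run for differences between contrasts, which use all groups of their fit.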
